A study of Rattus norvegicus with 6 samples.

Results

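The 37 genes described here encode the subunits of voltage-gated calcium and sodium channels and were measured in retinas of diabetic and control rats. They are the protein-coding entries of the deposited table whose symbol begins with Cacna, Cacnb or Cacng and a digit, or consists of Scn, a number and the letter a or b, without Cacna1f and Cacna2d4. Of 34170 genes in the table these were 23 calcium channel genes and 14 sodium channel genes. Cacna1i, a further calcium channel pore gene, is listed in the table as a processed transcript and is therefore outside this group.

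The 6 poly-A libraries were made from retinas of Sprague-Dawley males, outbred laboratory rats, and each carries its own labelled body weight. Rats of the 3 control samples, called WT in the labels, received the citrate buffer vehicle on 5 days into the peritoneum. Rats of the 3 diabetic samples received streptozotocin, a toxin of the insulin-producing beta cells, at 60 mg/kg after a 12 h fast by the same schedule, and rats above 16.7 mmol/L fasting glucose 1 week later were taken as diabetic. Diabetes was thus induced chemically and not by genotype, the labels do not say when the retinas were taken or whether 1 or both eyes were used, and labelled body weights were between 103.4 and 110.5 g in control and between 100.4 and 104 g in diabetic samples.

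A voltage-gated calcium channel has 1 large pore subunit, which senses voltage and conducts calcium, and auxiliary alpha2delta and beta subunits that bring it to the membrane and set its gating. Sodium channels have a similar large pore subunit, which carries the upstroke of the action potential, and small beta subunits that tune gating and act in cell adhesion. In the retina, L-type calcium channels drive sustained transmitter release at the ribbon synapses of photoreceptors and bipolar cells, while sodium channels serve the spikes of ganglion cells and of some amacrine and bipolar cells. Several of the gamma genes encode transmembrane regulators of AMPA-type glutamate receptors.

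The upstream sequences of members that stood out are shown so that they can be set beside the values. Of the 37 genes, 26 have at least 1 entry in the RefSeq promoter table (build GRCr8), 29 entries in all. Shown are the 250 bases before the annotated start, on the gene's strand, for the members that were higher in diabetic retina at an unadjusted p under 0.05 and have an entry, and for Scn4b, the member with the most negative difference. Cacnb2 has 2 annotated starts. Capitals mark the GC box GGGCGG, the CCAAT box CCAAT and the TATA box TATAAA, each on either strand. The windows are chr7:133860977-133861226 (plus strand) for Scn8a, chr3:70710706-70710955 (plus) for Scn2a, chr16:5527550-5527799 (minus) for Cacna1d, chr17:82472965-82473214 and chr17:82596542-82596791 (plus) for Cacnb2, chr7:111577758-111578007 (minus) for Cacng2 and chr8:54343623-54343872 (plus) for Scn4b.
Scn8a: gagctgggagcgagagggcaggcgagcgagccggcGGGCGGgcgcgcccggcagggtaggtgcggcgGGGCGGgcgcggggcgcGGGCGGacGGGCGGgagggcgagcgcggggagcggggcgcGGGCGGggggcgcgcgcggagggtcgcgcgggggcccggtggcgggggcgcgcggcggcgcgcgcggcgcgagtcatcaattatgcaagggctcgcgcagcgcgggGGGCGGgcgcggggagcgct
Scn2a: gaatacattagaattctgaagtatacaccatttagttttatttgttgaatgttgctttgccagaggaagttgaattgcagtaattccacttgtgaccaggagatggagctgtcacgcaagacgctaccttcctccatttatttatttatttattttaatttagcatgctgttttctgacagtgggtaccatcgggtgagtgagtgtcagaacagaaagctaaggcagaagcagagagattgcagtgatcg
Cacna1d: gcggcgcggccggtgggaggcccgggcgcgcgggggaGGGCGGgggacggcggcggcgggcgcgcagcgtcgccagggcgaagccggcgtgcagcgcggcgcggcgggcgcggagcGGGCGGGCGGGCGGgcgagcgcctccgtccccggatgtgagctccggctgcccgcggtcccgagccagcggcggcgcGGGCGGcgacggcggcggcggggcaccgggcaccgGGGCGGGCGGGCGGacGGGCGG
Cacnb2 first start: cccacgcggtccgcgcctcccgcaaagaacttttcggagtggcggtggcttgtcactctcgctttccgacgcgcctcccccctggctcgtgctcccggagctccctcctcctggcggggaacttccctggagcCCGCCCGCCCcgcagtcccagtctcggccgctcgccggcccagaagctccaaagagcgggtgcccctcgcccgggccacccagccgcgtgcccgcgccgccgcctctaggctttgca
Cacnb2 second start: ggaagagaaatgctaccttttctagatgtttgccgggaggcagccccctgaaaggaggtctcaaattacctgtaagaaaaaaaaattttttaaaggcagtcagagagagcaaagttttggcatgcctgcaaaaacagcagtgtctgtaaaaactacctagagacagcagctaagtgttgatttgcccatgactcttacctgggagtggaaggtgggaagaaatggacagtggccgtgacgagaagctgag
Cacng2: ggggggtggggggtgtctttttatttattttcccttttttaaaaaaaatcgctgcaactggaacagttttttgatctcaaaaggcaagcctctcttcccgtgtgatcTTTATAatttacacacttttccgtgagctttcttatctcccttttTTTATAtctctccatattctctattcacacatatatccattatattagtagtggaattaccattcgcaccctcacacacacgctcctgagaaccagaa
Scn4b: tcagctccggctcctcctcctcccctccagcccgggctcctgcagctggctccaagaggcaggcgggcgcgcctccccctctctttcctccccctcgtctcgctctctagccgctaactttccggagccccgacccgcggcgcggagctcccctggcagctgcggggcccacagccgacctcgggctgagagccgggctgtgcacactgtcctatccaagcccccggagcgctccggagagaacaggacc

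These windows differ widely in composition. The Scn8a and Cacna1d windows are 86% and 88.8% G or C, with 6 and 9 GC boxes, some of those in Cacna1d overlapping one another, whereas the Scn2a window has 39.6% G or C and none of these motifs. The Cacng2 window is 38.4% G or C and holds 2 TATA boxes on the opposite strand. The first Cacnb2 start has 2 GC boxes and the second has none, and the Scn4b window has no motif of the set at 71.6% G or C. Over all entries of the members, 14 of 29 windows (48.3%) hold a GC box, against 30.5% of all 33469 promoters. A CCAAT box is in 3 of the 29 windows, against 34.0% of all promoters, and a TATA box is in 2, against 12.9%. A match describes letters in this window and is not a binding site, and members with positive differences are found both with and without GC boxes.

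Libraries held between 12417686 and 19115426 fragments, as rebuilt from FPKM, the fragments per kilobase of gene length scaled to library size, and each diabetic library but diabetic 2 was deeper than every control library. Summed FPKM ran from 514771 to 552093 in the control group and from 467488 to 500107 in the diabetic group. The 12 rod photoreceptor markers on the list used here were all present, and 11 of them had negative differences. Their summed level was 61711, 71582 and 63567 FPKM over controls 1 to 3, compared with 53222, 48814 and 57965 over diabetics 1 to 3, with no overlap. FPKM are shares of a library, and in whole tissue fewer cells of a type and less RNA per cell cannot be told apart. The 12 ganglion cell markers summed to 634.3, 622.8 and 467.7 FPKM over controls 1 to 3, compared with 540.6, 442.3 and 436.2 over diabetics 1 to 3. The 9 amacrine cell markers summed to 233.5, 214.5 and 214.3 FPKM in the control group, compared with 264.2, 236.2 and 229.9 in the diabetic group. The 8 lens markers, each detected, summed to 307.2 FPKM in control 3, and elsewhere to no less than 10.9 and no more than 42.9 FPKM. The part of these markers in the results below was not tested.

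The most abundant members were Cacnb2, the beta subunit gene of ribbon synapse calcium channels, with a mean of 69.9 FPKM over the 6 libraries, and Cacng7, an AMPA receptor regulator, with 46.6 FPKM. In all, 9 members had a mean of at least 10 FPKM, 18 were between 1 and 10 FPKM and 6 between 0.5 and 1 FPKM. The 33 genes that reached 0.5 FPKM on average were tested. The other 4, Cacng1, Cacng6, Scn10a and Scn11a, were at or near 0. Cacng1, a subunit of the skeletal muscle channel, had 0 to 2 fragments per library, as had Cacng6 and Scn10a, the latter a sodium channel of pain-sensing neurons. Scn11a, from the same class of neurons, had 1 to 11 fragments, with FPKM from 0.0133 to 0.0985. No fold is given for these genes.

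**Figure D1:**
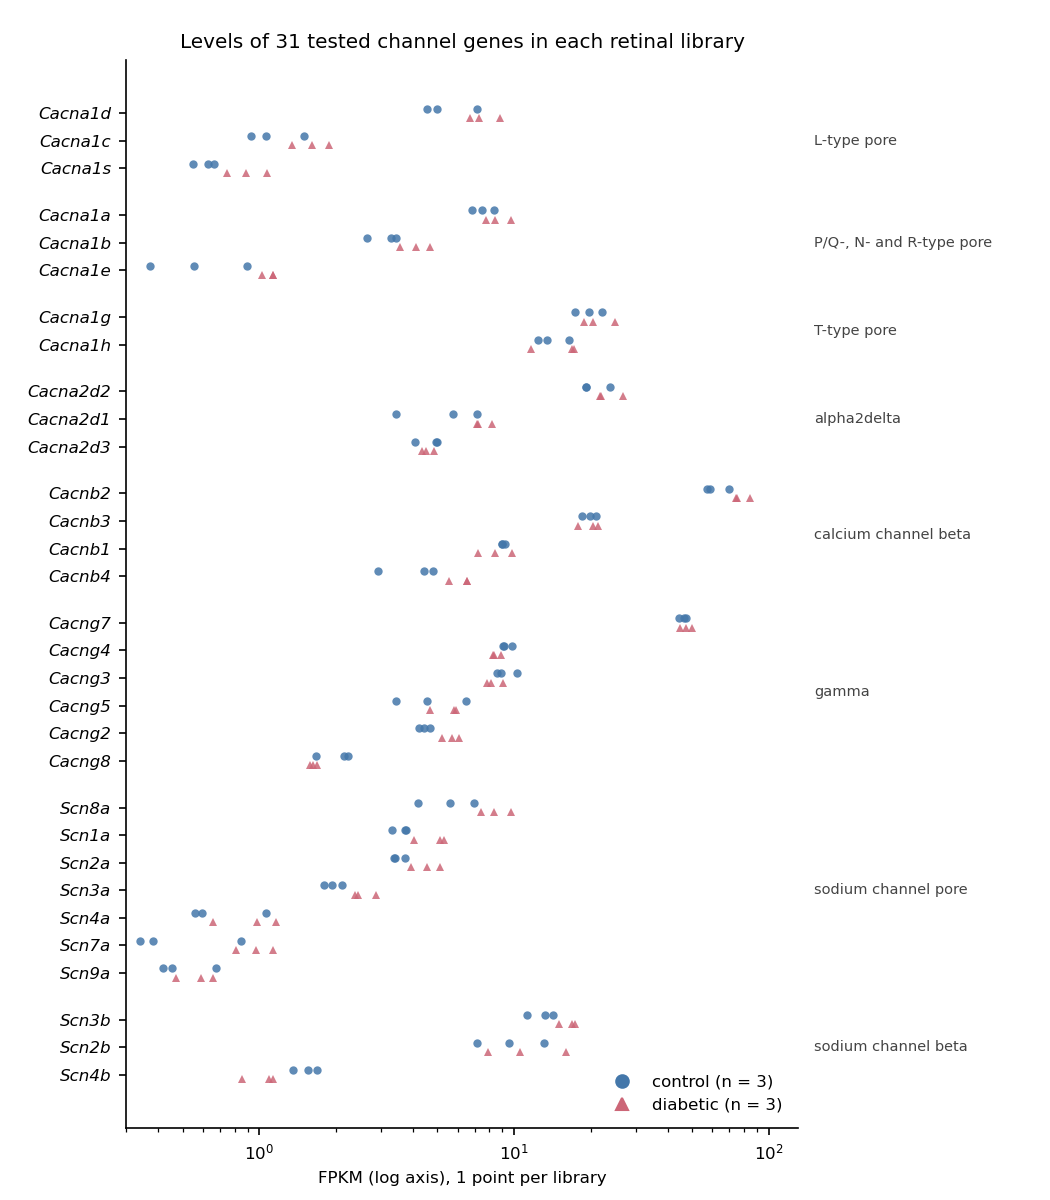
FPKM on a log axis for 31 of the 33 tested channel genes, by family, with 1 circle per control library and 1 triangle per diabetic library (n = 3 each). Cacnb2 and Cacng7 lie to the right at 44.4 to 84.4 FPKM, and triangles lie to the right of all circles for 11 of the genes drawn, among them Scn8a, Cacnb4 and Scn3a.

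Within the families the order of levels was mostly stable across libraries. Among the calcium pore genes described here, which leave out Cacna1f and Cacna1i, the T-type genes Cacna1g and Cacna1h came first. Their channels open near the resting potential, and their means were 20.6 and 14.7 FPKM. They were followed by Cacna1a (P/Q-type) at 8.09, Cacna1d (L-type) at 6.58, Cacna1b (N-type) at 3.63 and Cacna1c (L-type) at 1.39 FPKM. All these neighbours kept their order in 6 of 6 libraries, although the ranges of Cacna1a and Cacna1d overlapped, as did those of Cacna1d and Cacna1b. Cacna1c and the next gene, Cacna1e, also kept their order in 6 of 6 libraries with overlapping ranges. Cacna1e (R-type) at 0.853 FPKM and Cacna1s, the L-type pore of skeletal muscle, at 0.760 FPKM kept their order in 5 of 6 libraries, and their ranges overlapped. Cacna1h overlaps the gene Tpsg1, at 1.22 FPKM on the opposite strand, and without strand such reads cannot be told apart.

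Among sodium pore genes Scn8a led with a mean of 7.04 FPKM, above Scn1a at 4.21 FPKM in 6 of 6 libraries, and Scn2a was at 4.02 FPKM. Scn1a and Scn2a held their order in 4 of 6 libraries and did not differ beyond their spread. All 3 are pore genes of central neurons. Scn3a, best known from the embryonic brain, was at 2.26 FPKM, without overlap to Scn2a or to the next gene. Of the remaining pore genes, Scn4a of skeletal muscle (0.837 FPKM), the atypical Scn7a (0.747) and Scn9a of peripheral neurons (0.545) overlapped one another. Of the 11 skeletal muscle markers listed 8 were in the table, none at 0 in every library. They summed to 13.1, 12.4 and 13.7 FPKM over controls 1 to 3, compared with 14.2, 14.2 and 16.7 over diabetics 1 to 3, without overlap. Mylpf was highest at 6.66 to 8.04 FPKM, while Tnni2 was at 0 in 5 libraries. The part of muscle RNA in Scn4a and Cacna1s was not tested.

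The 3 alpha2delta genes described here, which leave out Cacna2d4, were led by Cacna2d2 at 22.1 FPKM. Below it were Cacna2d1 at 6.48 and Cacna2d3 at 4.62 FPKM, whose ranges overlapped. The 4 beta genes were ordered Cacnb2, Cacnb3 (19.8 FPKM), Cacnb1 (8.76) and Cacnb4 (5.13) in every library and without overlap. After Cacng7, the gamma genes Cacng4 and Cacng3 stood at 8.92 and 8.78 FPKM and Cacng5 and Cacng2 at 5.15 and 5.05 FPKM, and neither pair differed beyond its spread. Cacng8, another AMPA receptor regulator, was at 1.82 FPKM. The sodium beta genes Scn3b and Scn2b lay at 14.6 and 10.7 FPKM with overlapping ranges, and Scn4b at 1.28 FPKM.

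The comparison asks which channel messenger RNAs differed between diabetic and control retina. With limma on log2(FPKM + 0.5), 0 of the 33 members passed a Benjamini-Hochberg adjusted p of 0.05 over all 16363 genes tested, where 0% of all genes passed. The smallest adjusted p among the members was 0.169, for Cacnb2. With voom on the rebuilt fragments 2 genes of the whole table passed, neither of them a member. At an unadjusted p under 0.05, 8 members (24.2%) were higher in diabetic retina and 0 were lower, against 9.15% and 10.7% of all genes tested, or 19.9% in either direction. The 8 were the pore genes Scn8a, Scn1a, Scn2a and Cacna1d and the auxiliary genes Cacnb2, Cacnb4, Cacng2 and Scn3b. The count of members higher was 5 without control 1 or without control 2, 4 without diabetic 1 and 1, Cacnb2, without diabetic 2. In these 4 fits 6.56%, 6.29%, 7.61% and 5.67% of all genes tested were higher at that p. With FPKM rescaled to TPM (shares of a fixed total), which put the median of all genes at 0.13 on the log2 scale, 12 members were higher and 0 lower, while over all genes the split went from 1498 higher and 1757 lower to 3009 higher and 692 lower.

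By direction alone, 26 of 33 members (78.8%) had a positive log2 difference, against 50.1% of all genes. The median difference of the members was 0.22 and that of all genes 0.00034. All 3 diabetic values lay above all control values in 12 members (36.4%, against 12.7% of all genes), and below them in 2, Scn4b and Cacng4 (6.06%, against 13.6%). These shares have to be read against gene length, which is given next.

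All 16 tested pore genes were 5115 to 11887 nt long and all 17 auxiliary genes 1037 to 4741 nt, so in this group role and length cannot be told apart. All 16 pore genes had a positive difference, with a median of 0.34, and 4 of them (25%) were higher at an unadjusted p under 0.05. Of the 1637 tested genes of 5083 nt or more, of which the pore genes are 16, 79.9% had a positive difference, the median was 0.17 and 23.0% were higher at that p. The pore genes' share at that p is thus near the background of long genes and is no result about the channels. All diabetic values lay above all control values in 8 of the 16 pore genes (50%), against 30.9% of those long genes. The same held for 4 of the 17 auxiliary genes (23.5%), against 10.6% of the tested genes under 5000 nt. Among the 17 auxiliary genes 10 had a positive and 7 a negative difference (13 and 4 with TPM), and the median was 0.04. Of them 4 (23.5%) were higher at an unadjusted p under 0.05, against 7.61% of the tested genes under 5000 nt. Those genes are shorter, with a median of 1900 nt against 2858 nt for the auxiliary genes. In the length classes from 2101 to 5082 nt, which hold the 4, the shares higher at that p were 8.06% to 11.4%. When each library's trend on gene length was removed, the median was 0.13 for the pore genes, of which 12 of 16 stayed positive, and 0.07 for the auxiliary genes, against -0.0079 for all genes. The members at an unadjusted p under 0.05 were then Cacnb2, Cacnb4, Cacng2 and Scn8a, higher, and Scn4b, lower. That is 4 and 1 of 33 members, against 8.17% of all genes tested higher and 9.20% lower with that trend removed.

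**Figure D2:**
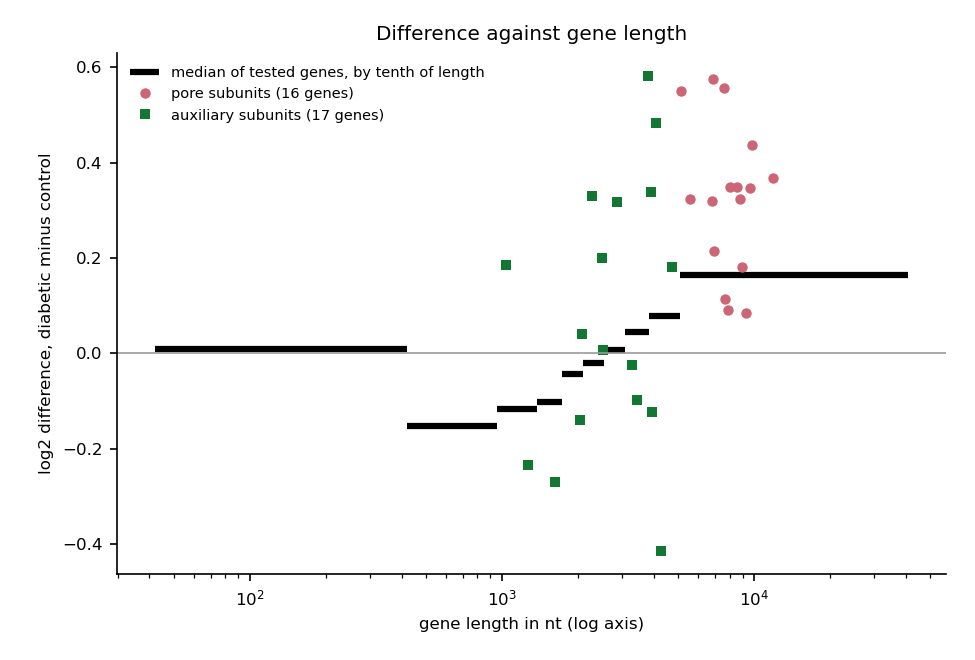
Log2 difference between diabetic and control retina against gene length in nt on a log axis, for pore genes (circles, 16) and auxiliary genes (squares, 17), with the median of all tested genes in each of 10 equal classes of gene length as black bars. All circles lie above 0 at lengths where the bar stands at 0.17, and the squares spread from -0.41 to 0.58.

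All 8 tested sodium pore genes had a positive difference, with a median of 0.34 on the log2 scale, and 7 of them had one with the length trend removed, with a median of 0.13. Scn8a, the main pore of mature axon initial segments, measured 4.21, 5.62 and 6.97 FPKM over controls 1 to 3, compared with 7.40, 9.71 and 8.32 over diabetics 1 to 3. The diabetic libraries were all above the controls, with control 3 close to diabetic 1. The means were 5.60 ± 1.38 and 8.48 ± 1.16 FPKM (SD, n = 3 each), and the log2 difference was 0.57 with a 95% interval from 0.13 to 1.02 (adjusted p = 0.179, limma). It was 0.41 with the length trend removed and between 0.40 and 0.73 when 1 library was left out.

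Scn1a stood at 3.32, 3.75 and 3.75 FPKM for the control samples and, for the diabetic samples, 5.29, 5.13 and 4.05. Its neighbour Scn2a read 3.73, 3.39 and 3.40 FPKM across the control retinas, against 4.54, 5.13 and 3.92 across the diabetic ones. For both genes diabetic 3 was the diabetic library closest to control, and the groups did not overlap. The log2 differences were 0.37 for Scn1a and 0.32 for Scn2a (adjusted p = 0.217 and 0.249, limma), and both were 0.11 with the length trend removed. Scn3a measured 1.80, 2.12 and 1.93 FPKM over controls 1 to 3, compared with 2.87, 2.43 and 2.38 over diabetics 1 to 3, again without overlap (log2 difference 0.32, adjusted p = 0.290, limma). Its difference was 0.15 with the length trend removed.

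In Scn7a the groups overlapped, because control 1 at 0.849 FPKM was above diabetic 2 at 0.808 FPKM. Its difference was 0.55, with an interval from -0.075 to 1.18. Scn4a and Scn9a had differences of 0.22 and 0.09 with overlapping groups, which were 0.04 and -0.14 with the length trend removed. The summed FPKM of all 10 sodium pore genes was 15.9, 16.9 and 18.7 over controls 1 to 3, compared with 23.6, 25.8 and 22.3 over diabetics 1 to 3. The share of each gene in this sum overlapped between the groups for all 10 genes. Scn8a made up 32.3 ± 5.47% of it in control and 35.5 ± 3.55% in diabetic libraries, and Scn1a 21.1 ± 1.04% and 20.2 ± 2.14% (SD, n = 3 each). The sum was thus higher with no separation of the groups in its makeup. It is not corrected for the trend on gene length, and the 8 tested genes have 5115 to 11887 nt. Their median difference of 0.34 was 0.13 with that trend removed.

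**Figure D3:**
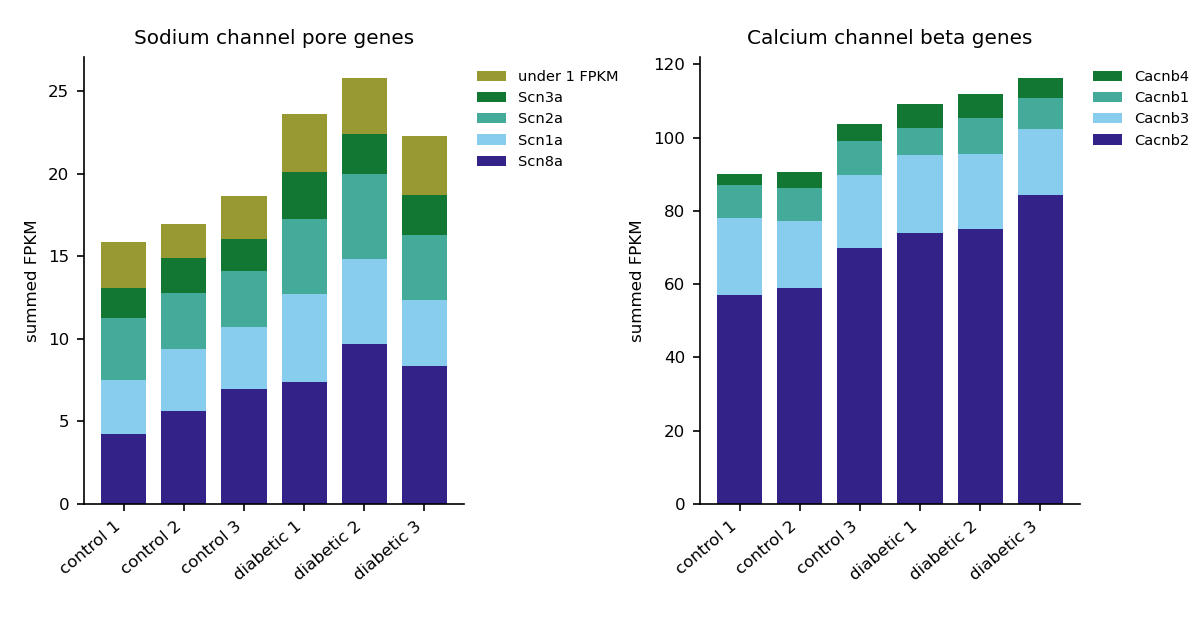
Summed FPKM of the sodium channel pore genes (left) and calcium channel beta genes (right) in each library, stacked by gene, with genes under a mean of 1 FPKM drawn together. The sodium sum runs from 15.9 to 18.7 FPKM in the control group and from 22.3 to 25.8 FPKM in the diabetic group, and Cacnb2 is the largest part of the calcium beta sum in all 6.

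The sodium beta genes went apart in sign. Scn3b, whose product is a partner of sodium channel pores in neurons, read 13.2, 14.3 and 11.2 FPKM across the control retinas, against 17.3, 16.9 and 15.0 across the diabetic ones. The groups did not overlap, and the log2 difference was 0.34 with an interval from 0.07 to 0.61 (adjusted p = 0.186, limma). Scn4b, linked to resurgent sodium current, had the most negative difference of all members with the settings reported. It measured 1.69, 1.55 and 1.35 FPKM over controls 1 to 3, compared with 1.13, 1.09 and 0.855 over diabetics 1 to 3, from 69 to 123 fragments. Each diabetic value was below each control value, the log2 difference was -0.41 with an interval from -0.85 to 0.02 (adjusted p = 0.268, limma), and it was -0.50 with the length trend removed. Of the tested genes of 3848 to 5082 nt, the length class that holds Scn4b and Scn3b, 2.63% were lower at an unadjusted p under 0.05 and 11.4% higher.

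Scn2b read 9.51, 13.2 and 7.15 FPKM across the control retinas, against 16.0, 10.6 and 7.91 across the diabetic ones, with control 3 and diabetic 3 lowest. The ganglion cell marker sum given above was also low in control 3 and diabetic 3, at 467.7 and 436.2 FPKM. In diabetic 2 that sum was low too, at 442.3 FPKM, while Scn2b at 10.6 FPKM was above control 1. The sum was highest in control 1, at 634.3 FPKM, while Scn2b was highest in diabetic 1. The part of the ganglion cell markers in Scn2b was not tested. Within the summed FPKM of the 4 beta genes, the share of Scn4b was 4.33 ± 0.61% in control and 2.69 ± 0.21% in diabetic libraries, while that of Scn3b was 36.3 ± 3.40% and 43.3 ± 4.45% (SD, n = 3 each). The shares of Scn4b did not overlap between the groups, and those of Scn3b and Scn2b did.

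The L-type pore genes described here, which leave out Cacna1f, all 3 had positive differences. Cacna1d, the low-threshold L-type pore of inner retinal neurons and endocrine cells, measured 4.54, 4.97 and 7.16 FPKM over controls 1 to 3, compared with 6.73, 8.79 and 7.29 over diabetics 1 to 3. Control 3 lay above diabetic 1, so the groups overlapped. The log2 difference was 0.44 with an interval from 0.0020 to 0.87 (adjusted p = 0.250, limma), and it was 0.21 with the length trend removed. Cacna1s, at low level, stood at 0.666, 0.551 and 0.632 FPKM for the control samples and, for the diabetic samples, 0.889, 0.744 and 1.08, without overlap, from 37 to 113 fragments. Its difference of 0.32 had an interval from -0.17 to 0.82 and was 0.20 with the length trend removed. The summed skeletal muscle markers given above were higher in the same libraries. The 3 tested markers Acta1, Ckm and Mylpf overlapped between the groups, with differences of 0.19, 0.47 and 0.01. Among markers too low to be tested, Mb did not overlap, at 0.124, 0.0874 and 0.0825 FPKM over controls 1 to 3. Over diabetics 1 to 3 it read 0.167, 0.312 and 0.336 FPKM, and the other untested markers overlapped. The part of muscle RNA in Cacna1s was not tested. Cacna1c, the L-type pore of heart, smooth muscle and neurons, overlapped between groups, with means of 1.17 ± 0.30 and 1.61 ± 0.26 FPKM (SD, n = 3 each).

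Of the pore genes of presynaptic channels none reached an unadjusted p under 0.05. Cacna1b read 3.30, 2.65 and 3.44 FPKM across the control retinas, against 3.56, 4.66 and 4.14 across the diabetic ones, and control 3 and diabetic 1 almost met. Its difference was 0.35 with an interval from -0.02 to 0.71 (adjusted p = 0.268, limma), and it was 0.12 with the length trend removed. Cacna1e measured 0.371, 0.555 and 0.894 FPKM over controls 1 to 3, compared with 1.13, 1.03 and 1.14 over diabetics 1 to 3, from 48 to 164 fragments. The control libraries of Cacna1e were far more spread than the diabetic ones, and the groups did not overlap. Its difference was 0.56 (adjusted p = 0.257, limma), and as the added 0.5 FPKM damps the change of low genes, it was 0.83 with 0.1 FPKM added and 0.98 with voom. It was 0.37 with the length trend removed and 0.40 without control 1. Cacna1a had means of 7.54 ± 0.74 and 8.63 ± 1.01 FPKM (SD, n = 3 each) with overlapping groups and a difference of 0.18, which was -0.03 with the length trend removed.

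The T-type genes Cacna1g and Cacna1h had the smallest differences among the calcium pore genes described here, 0.11 and 0.09. Their intervals ran from -0.20 to 0.43 and from -0.31 to 0.50. Both differences were negative with the length trend removed, at -0.08 and -0.10. In the summed FPKM of the 8 calcium pore genes described here, the share of Cacna1g was 39.0, 37.4 and 36.5% over controls 1 to 3, compared with 36.3, 36.1 and 33.6% over diabetics 1 to 3. That of Cacna1d was 8.97, 10.7 and 11.8% in the control group, compared with 12.9, 12.8 and 12.0% in the diabetic group. Neither share overlapped between the groups, the first being lower and the second higher in diabetic libraries. The shares of Cacna1b, Cacna1c and Cacna1e were also higher without overlap, and those of Cacna1s, Cacna1a and Cacna1h overlapped. The sum itself overlapped, at 46.2 to 60.5 FPKM for controls against 52.0 to 68.8 FPKM for diabetics.

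The calcium channel beta genes include the 2 members with the smallest p, Cacnb2 and Cacnb4. Cacnb2 stood at 57.0, 58.9 and 69.9 FPKM for the control samples and, for the diabetic samples, 74.0, 75.1 and 84.4, with 1623 to 3638 fragments. Every diabetic library was above every control library. The means were 61.9 ± 6.97 and 77.8 ± 5.75 FPKM (SD, n = 3 each). The log2 difference was 0.33 with an interval from 0.09 to 0.57 (adjusted p = 0.169, limma) and 0.34 with the length trend removed. It was between 0.27 and 0.42 when 1 library was left out, and missed an unadjusted p of 0.05 only without diabetic 3. The tested genes of 2101 to 2540 nt, among which Cacnb2 (2280 nt) falls, had a median difference of -0.02. In the same libraries the summed rod markers were lower in diabetic retina, as given above.

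Cacnb4, a beta subunit gene of brain, read 2.93, 4.44 and 4.79 FPKM across the control retinas, against 6.52, 6.56 and 5.56 across the diabetic ones. The groups did not overlap and control 1 was the lowest by far. The difference of 0.58 had an interval from 0.15 to 1.02 (adjusted p = 0.175, limma), and it was 0.39 without control 1 and 0.51 with the length trend removed. Cacnb3 and Cacnb1 had differences of 0.01 and -0.10 with intervals from -0.22 to 0.24 and from -0.39 to 0.20. The summed FPKM of the 4 beta genes was 89.9, 90.7 and 103.8 over controls 1 to 3, compared with 109.0, 112.0 and 116.3 over diabetics 1 to 3, without overlap. Of it Cacnb1 made up 9.57 ± 0.62% in control and 7.54 ± 1.12% in diabetic libraries (SD, n = 3 each), without overlap, and the shares of Cacnb2, Cacnb3 and Cacnb4 overlapped.

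Of the alpha2delta genes described here, none reached an unadjusted p under 0.05. Cacna2d1 and Cacna2d2 encode the binding site of gabapentin. Cacna2d1 measured 3.44, 5.76 and 7.14 FPKM over controls 1 to 3, compared with 7.25, 8.20 and 7.12 over diabetics 1 to 3. Control 1 stood low and control 3 lay among the diabetic values, so the difference of 0.48 was 0.21 without control 1 and 0.69 without control 3. Cacna2d2 and Cacna2d3 had differences of 0.18 and -0.02, with intervals from -0.11 to 0.48 and from -0.32 to 0.27, and that of Cacna2d2 was 0.08 with the length trend removed.

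The gamma genes split evenly, with 3 positive and 3 negative differences. Cacng2 (stargazin), the founding AMPA receptor regulator, stood at 4.41, 4.69 and 4.23 FPKM for the control samples and, for the diabetic samples, 6.07, 5.70 and 5.22. The groups did not overlap and were tight, and the difference of 0.32 had an interval from 0.05 to 0.58 (adjusted p = 0.197, limma). Cacng4 was the second member with all diabetic values below control, at 9.78, 9.12 and 9.08 FPKM in control and 8.90, 8.29 and 8.37 FPKM in diabetic libraries. The separation was small, the difference of -0.12 had an interval from -0.335 to 0.09, and with TPM it was 0.01. Cacng7, Cacng5, Cacng3 and Cacng8 had differences of 0.04, 0.20, -0.14 and -0.23. That of Cacng5 was 0.42 without control 1 and 0.00062 without control 3, and that of Cacng8 was -0.13 with the length trend removed. The narrowest interval of all members, from -0.13 to 0.21, was that of Cacng7.

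**Figure D4:**
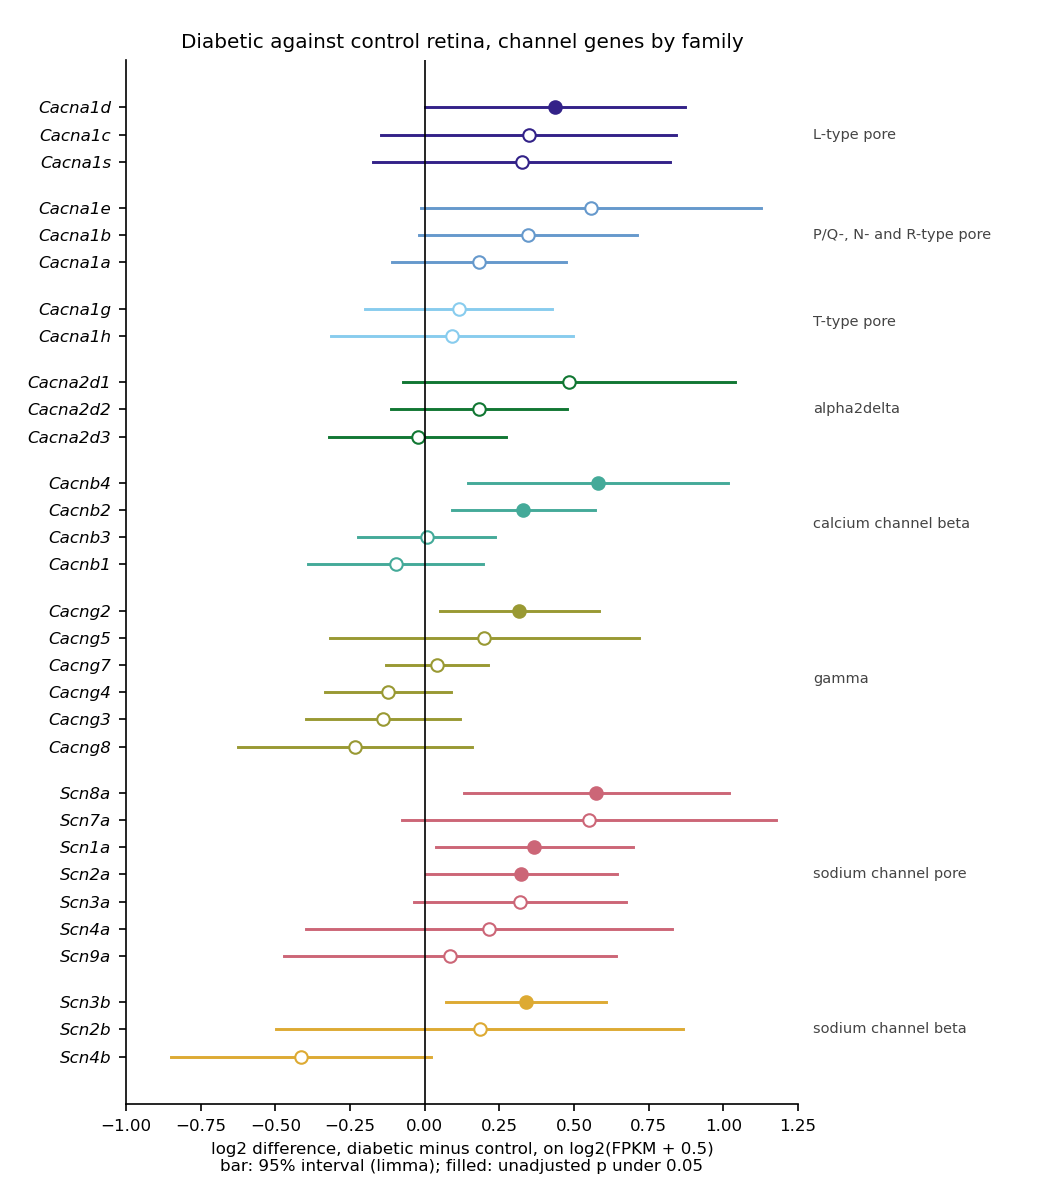
Log2 difference between diabetic and control retina with its 95% interval from limma for 31 of the 33 tested channel genes, by family. Filled circles mark the 8 genes at an unadjusted p under 0.05, all of them to the right of 0, and the widest intervals belong to low genes such as Scn7a and to Scn2b.

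Across libraries, control 3 stood between the groups in the pore genes. Against the control mean, the median of the 16 pore genes on the log2 scale was -0.06, -0.10 and 0.13 over controls 1 to 3, compared with 0.30, 0.42 and 0.32 over diabetics 1 to 3. For all tested genes of 5083 nt or more these medians were -0.06, -0.04 and 0.11 for controls, compared with 0.13, 0.20 and 0.17 for diabetics, which is the same order of groups with a smaller spread. The medians of the 17 auxiliary genes were 0.01, 0.07 and -0.05 for controls, compared with 0.10, 0.12 and -0.04 for diabetics, and overlapped. Diabetic 2 was the highest of the 6 libraries in 14 of 33 members, diabetic 1 in 8 and diabetic 3 in 3. Control 1 was highest in 6, control 2 in 2 and control 3 in 0, and these counts were not taken over all genes.

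Several members lie close to one another in the genome. In the coordinates of the deposited table, whose genome build no source used here names, Scn3a, Scn2a, Scn1a, Scn9a and Scn7a lie on chromosome 3 between 51532627 and 52849907, in that order. Their differences were 0.32, 0.32, 0.37, 0.09 and 0.55, so members of 1 cluster ranged from near 0 to among the largest. Scn2b and Scn4b are 13.4 kb apart on chromosome 8 on the same strand, with differences of 0.18 and -0.41. Cacng6, Cacng8 and Cacng7 lie side by side on chromosome 1, and range from near 0 FPKM for Cacng6 to 46.6 FPKM for Cacng7. Cacng1, Cacng4 and Cacng5 do so on chromosome 10, again with Cacng1 near 0 FPKM.

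Proteins that bind or move these channels gave mixed results, and 0 genes of the lists passed the adjusted threshold. Of the calcium channel partners, 20 of 24 listed genes were tested, with 11 positive and 9 negative differences, a median of 0.04, and 3 higher and 3 lower at an unadjusted p under 0.05. Cabp4, the calcium-binding regulator of photoreceptor channels, read 634.7, 684.4 and 620.6 FPKM across the control retinas, against 465.9, 414.0 and 467.2 across the diabetic ones, without overlap (log2 difference -0.53, adjusted p = 0.127, limma). The active zone scaffold genes Rims1 and Rims2 had 0.43 and 0.35. Of these genes Cabp4 has 1443 nt, Rims1 5870 nt and Rims2 8401 nt.

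Of the 17 sodium channel partners, 13 had positive differences with a median of 0.11, and 6 were higher and 2 lower at an unadjusted p under 0.05. The adhesion gene Cntn1 (0.39), the ubiquitin ligase gene Nedd4 (0.30) and the ankyrin gene Ank2 (0.72) were higher and Rangrf (-0.37), a channel trafficking gene, was lower. Of these Ank2 has 12402 nt and Rangrf 837 nt. In the related cation channels 7 of 13 listed genes were tested, 5 with positive differences. Unc80, a subunit of the sodium leak channel, had 1.04, its partner Unc79 had 0.34, the lysosomal channel gene Tpcn2 had 0.38 and the leak channel pore gene Nalcn had 0.13. Unc80 measured 3.50, 5.37 and 7.65 FPKM over controls 1 to 3, compared with 10.8, 13.1 and 10.4 over diabetics 1 to 3, and it has 9988 nt.

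Of the calcium stores, pumps and exchangers 18 of 21 listed genes were tested, 17 with positive differences, a median of 0.12, and 5 higher and 0 lower at an unadjusted p under 0.05. The plasma membrane calcium pump gene Atp2b1 stood at 48.7, 46.1 and 56.3 FPKM for the control samples and, for the diabetic samples, 67.3, 68.4 and 70.2, without overlap (log2 difference 0.45, adjusted p = 0.128, limma). It has 4370 nt, and tested genes of 3848 to 5082 nt had a median of 0.08. The release channel genes Ryr2 and Itpr1 had 0.65 and 0.39 and the store sensor gene Stim2 had 0.24. Ryr2 has 14817 nt and Itpr1 9927 nt, in the longest class, where 79.9% of tested genes had positive differences and 23.0% were higher at that p. The 18 genes have a median length of 4806 nt. These counts are descriptions beside the 9.15% and 10.7% of all genes, and no list was tested as a whole.

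**Figure D5:**
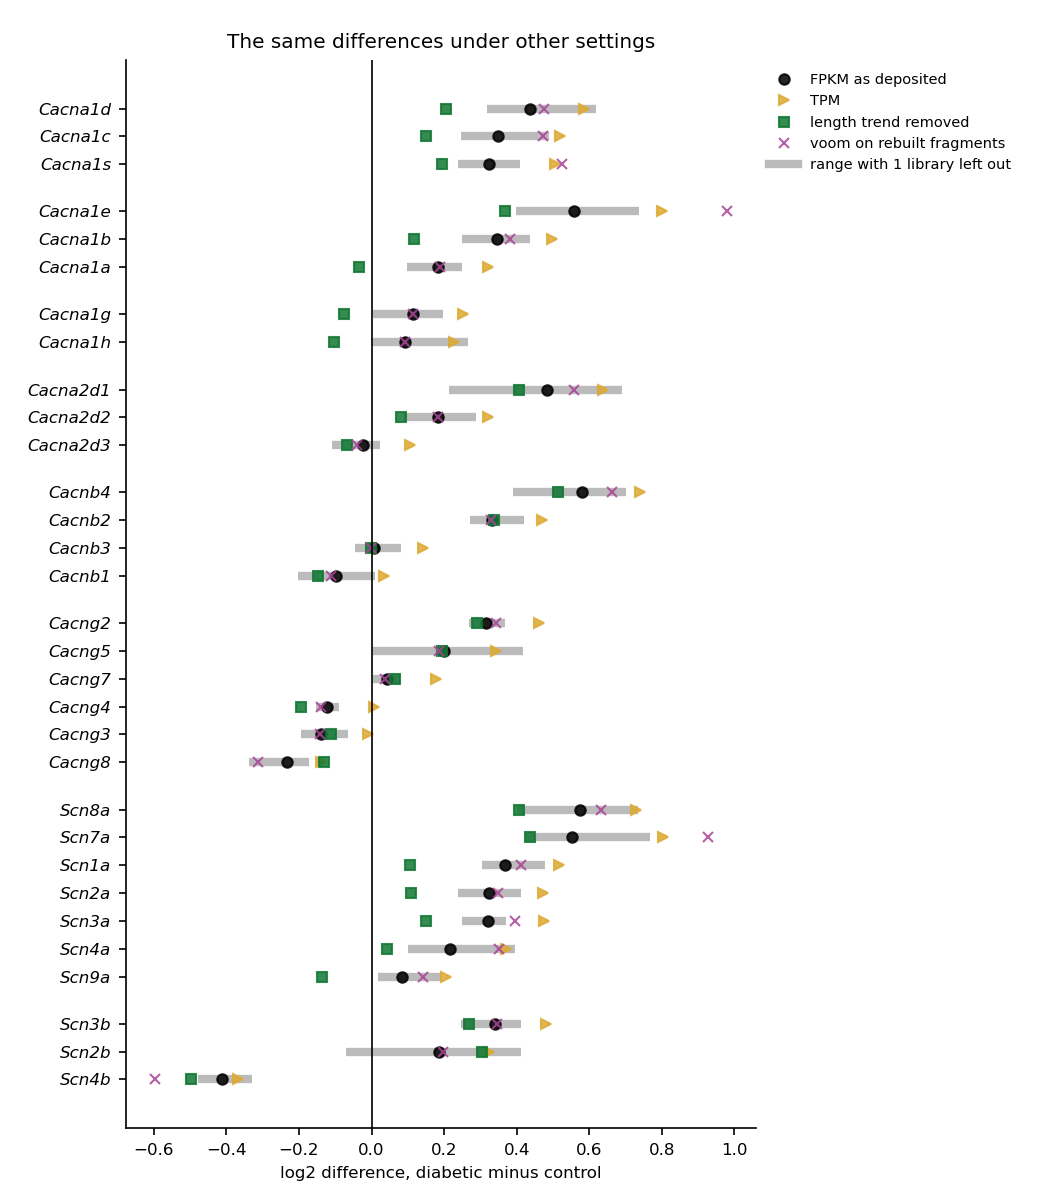
Log2 difference of 31 of the 33 tested channel genes with FPKM as deposited, with TPM, with the gene length trend removed and with voom on rebuilt fragments, and the range when 1 library is left out (grey bars). Removing the length trend moves the pore genes to the left, Scn1a from 0.37 to 0.11, and leaves Cacnb2 at 0.34 and Cacnb4 at 0.51.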

How the data were processed

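Poly-A RNA of 6 retinal samples was sequenced, and the kit's steps in the labels' protocols name no strand marking. The aligner HISAT2 2.0.5 is listed in the submitters' processing notes; the counting tool, genome build and annotation were not given in the sources used here. Values were deposited by the authors as FPKM in 1 table with gene length, biotype and coordinates, per the file headers. FPKM times length came in whole steps in every library (100% of values within 0.05 of a whole number), so fragments could be rebuilt. Replicates differed beyond sampling noise in every pair (lowest chi-square over degrees of freedom 10.7).

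Genes averaging at least 0.5 FPKM entered limma 3.58.1 (R 4.3.3) as log2(FPKM + 0.5), so folds of low genes are understated. The model held the group alone, with an intensity trend and two-sided moderated tests, Benjamini-Hochberg adjusted over 16363 genes. The labels do not say outright that each sample is 1 animal, so p-values measure the spread between samples. Counts, medians and sums cover all members. A few genes are not reported individually here. Values per library are given for the other members at an unadjusted p under 0.05 or without overlap, and for Scn2b, Cacna2d1 and Unc80, chosen after their values were seen. Of each partner list up to 4 genes of smallest p with at least 1 FPKM in the higher group are named. Members and lists were chosen with earlier results of these data known. In simulated counterparts of the diabetic and control libraries (16555 genes), changes were set in genes averaging at least 1 FPKM. At an adjusted p under 0.05, limma recovered 26.9% of genes changed 1.5-fold, 65.7% changed 2-fold and 83.3% changed 4-fold. Noise was drawn for each gene alone and without a trend on gene length, which the real libraries have. These shares are thus not those to be recovered in the real comparison. Alternatives were other pseudocounts, filters and scalings, removal of a length trend per library by lowess, voom with trimmed-mean scaling, limma without the trend, protein-coding genes only, a replicate block, and each library omitted in turn. Figures were drawn with matplotlib 3.10.9.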

Additional observations from a re-analysis of the deposited data

How the results depend on the processing

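The members at an unadjusted p under 0.05 were 8 higher and 0 lower with the settings reported. They numbered 4 and 1 after quantile normalization, where 9.43% of all genes tested were higher and 8.71% lower. Once the length trend was removed they were 4 and 1, against 8.17% and 9.20% of all genes. With voom they were 16 and 1, against 10.5% and 10.6%. Without the intensity trend they were 13 and 1, against 9.29% and 8.92%. With protein-coding genes only they were 10 and 1, against 10.4% and 12.0%. The 1 lower was Scn4b each time. The median of all 33 tested members, 0.22, was 0.32 with 0.1 FPKM added, 0.37 with TPM, 0.11 without the length trend and 0.33 with voom. The count of genes past an adjusted p of 0.05 was 2 with voom, with 0 members among them under any setting run. Leaving out 1 library gave 0 to 4 genes past that threshold, 1 to 7 members higher and 0 to 1 lower, and medians from 0.21 to 0.29. Differences that changed sign were those of Cacng4 (0.0069), Cacnb1 (0.034) and Cacna2d3 (0.11) with TPM, of Cacna1g (-0.076), Cacna1h (-0.10), Cacna1a (-0.034), Scn9a (-0.14) and Cacnb3 (-0.000329) with the length trend removed, and of Cacnb3 (-0.0016) with voom. With 1 library left out they ranged from -0.11 to 0.024 in Cacna2d3, from -0.045 to 0.081 in Cacnb3, from -0.072 to 0.41 in Scn2b, from -0.20 to 0.0082 in Cacnb1 and from -0.00098 to 0.26 in Cacna1h. The causes were not tested, except that the fits without a library hold fewer samples. Same-numbered libraries did not deviate together (correlations of -0.05, -0.08 and 0.00061 across genes), and no library correlated best with its own number. The numbers thus gave no sign of pairing the samples, but weak correlations cannot exclude a pairing by design. With a replicate block 4 members were higher at an unadjusted p under 0.05, Cacnb2, Scn3b, Scn8a and Cacnb4, and 0 lower. Of all genes 7.90% were higher and 9.15% lower with that block. Depth limits Cacng1, Cacng6, Scn10a and Scn11a, where 3 fragments correspond to between 0.0242 and 0.191 FPKM.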

Other observations

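Cacna1i, the third T-type calcium pore gene, which the table lists as a processed transcript, read 3.29, 4.23 and 5.29 FPKM across the control retinas, against 5.70, 7.21 and 5.62 across the diabetic ones. The groups did not overlap, unlike those of Cacna1g and Cacna1h, but control 3 at 5.29 and diabetic 3 at 5.62 FPKM lay close. Diabetic values lay above all control values in 12.7% of all tested genes and in 30.9% of those of 5083 nt or more. The length of Cacna1i is not given here.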
